A study of Mus musculus with 111 samples.

Results

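The change in the response of the mouse lung to bleomycin between day 1 and day 2 was taken for each gene as a difference of differences, in which bleomycin minus saline at day 1 was subtracted from bleomycin minus saline at day 2. It was measured in 15707 genes and rests on 32 of the 111 arrays of a single-dose time course with 7 days of harvest. The 4 groups were lung homogenates of male C57BL6/J mice, 7 to 9 weeks old, that received either 2 U/kg bleomycin in 50 µl of saline or 50 µl of saline alone, once and into the trachea, with 8 mice per group and 1 array per mouse. Saline and bleomycin mice of day 1 were compared with different saline and bleomycin mice of day 2, since each mouse gave its lung once. Levels are log2 values normalized by RMA, on which a difference of 1 is a 2-fold difference, and "changed" below stands for an adjusted p under 0.05 in the limma fit over all genes.

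Bleomycin is a glycopeptide that breaks DNA, and a dose sprayed into the airways injures the alveolar lining and is followed by inflammation and later by fibrosis. In the first days after such an injury an epithelium under genotoxic stress holds its cell cycle through p53 and its targets, while chemokines draw neutrophils and then monocytes from the blood. Type I interferons act through a receptor and STAT proteins on a set of antiviral genes, and dividing cells express the genes of DNA replication before those of mitosis.

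Between the days, 379 genes (2.41% of those tested) had a higher response at day 2 and 292 genes (1.86%) a lower one. Beyond 2-fold the balance was uneven, with 40 genes (0.255%) higher and 3 genes (0.0191%) lower, the 3 being Zbtb16, Ccnjl and Arntl. At day 1 alone 2314 genes (14.7%) were raised by bleomycin and 2617 (16.7%) reduced, and at day 2 alone 2233 (14.2%) were raised and 2059 (13.1%) reduced. The median difference of differences over all genes was 0.01 and its median standard error 0.11.

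Lung genes were high in every array of the 4 groups, with Sftpc between 14.31 and 14.49 and Ager between 13.82 and 14.15. The median correlation of an array with the others of its group was lowest in mouse 7 of saline day 1 (0.9838) and mouse 5 of bleomycin day 2 (0.9842). The 3′ minus 5′ difference of the beta-actin control probesets, a sign of RNA quality, averaged 0.97 ± 0.09 in saline day 1, 0.89 ± 0.05 in bleomycin day 1, 0.84 ± 0.06 in saline day 2 and 0.76 ± 0.08 in bleomycin day 2 (SD, n = 8). The same difference for the transferrin receptor controls set saline day 1 apart, at 1.76 ± 0.18 against 2.17 ± 0.18 in bleomycin day 1, 2.16 ± 0.19 in saline day 2 and 2.11 ± 0.15 in bleomycin day 2. With the actin difference as a covariate 473 genes were higher and 370 lower, and with that of the transferrin receptor 533 and 532. The labels used here name no array batch, so that a batch shared by the mice of 1 day cannot be told apart from the day. In whole lung, fewer cells of a type and less RNA per cell cannot be told apart.

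Among the bleomycin mice 3 stood apart from the others of their group. The mean level of 28 p53 targets, genes that damaged DNA induces, was 9.07 in mouse 5 and 9.11 in mouse 8 of bleomycin day 2, within the saline range of 9.02 to 9.12, while the other 6 mice stood between 9.78 and 10.06. In mouse 8 of bleomycin day 1 it was 9.02, against 8.98 to 9.07 in saline mice and 9.44 to 10.09 in the other 7. The day 2 mice also lay within or near the saline range in acute-phase proteins (8.40 and 8.88 against 8.58 to 8.77), wound healing genes (8.67 and 8.78 against 8.64 to 8.86) and complement (9.42 and 9.53 against 9.35 to 9.68). In monocyte markers (9.56 and 9.65) and neutrophil chemokines (9.09 and 9.28) they lay above every saline mouse of their day, which reached 9.30 and 8.62. Without these 3 mice 520 genes had a higher and 358 a lower response at day 2, with 83 higher by over 2-fold, and without the 2 of day 2 alone the counts were 793, 598 and 114. The 3 mice were picked by their low levels, so these counts are a description only.

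A changed response can come with a shift between days in the bleomycin mice, in the saline mice or in both, and the day-to-day comparison within each arm was therefore set beside it. Within bleomycin mice 1623 genes (10.3%) were higher and 1334 (8.49%) lower at day 2 than at day 1, and within saline mice 2281 (14.5%) were higher and 2612 (16.6%) lower. Of the 671 changed genes, 402 were called between days in the saline mice only, 185 in the bleomycin mice only, 64 in both and 20 in neither. Among the 379 genes with a higher response, 193 were called in the saline mice only and 139 in the bleomycin mice only. Among the 292 with a lower response the saline mice alone were called for 209 and the bleomycin mice alone for 46. These comparisons share arrays with the difference of differences and are given as a description of where it came from.

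**Figure D1:**
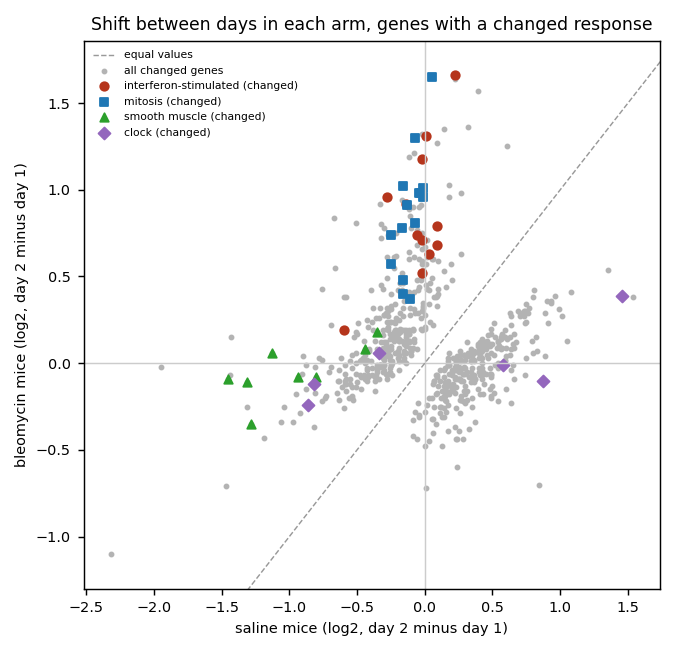
The 671 genes with a changed response are plotted by their difference between day 2 and day 1 in saline mice (x axis, log2) and in bleomycin mice (y axis, log2), with changed members of 4 gene lists in colour. Most interferon-stimulated and mitosis genes lie high on the y axis near 0 on the x axis, whereas smooth muscle genes lie to the left near 0 on the y axis, and the dashed line marks equal shifts in both arms.

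By their calls at each day the changed genes fell into a few classes. Of those with a higher response, 164 were uncalled at day 1 and higher at day 2, with Apod, Mmp13, Dtl and Ifi213 in front, 149 were lower at day 1 and uncalled at day 2, led by Prss35, Acta2, Ttr and Tnni2, and 33 were higher on both days, led by Oas3, Cxcl11, Vcan and Irf7. In 23 genes bleomycin mice were below saline mice at day 1 and above them at day 2, among them Cps1, Hmmr, Slc8a2 and Cep55. Of those with a lower response, 162 were higher at day 1 and uncalled at day 2 (Gtpbp3, Hecw2, Pus3 and Ubfd1 in front), 96 were uncalled and then lower (Ccnjl, Arntl, Npas2 and Sdha), and 17 turned from higher to lower, led by Slc10a1 and Ivns1abp.

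**Figure D2:**
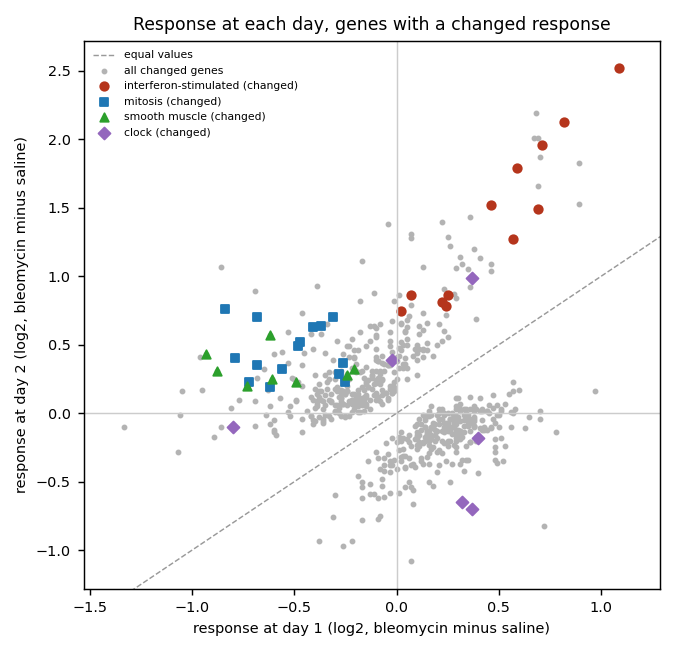
The response (bleomycin minus saline, log2) of each of the 671 changed genes is plotted at day 1 (x axis) and day 2 (y axis), with changed members of 4 gene lists in colour and a dashed line where both responses are equal. Interferon-stimulated genes were at or above 0 at day 1 and higher at day 2, whereas mitosis and smooth muscle genes lay below 0 at day 1 and above 0 at day 2.

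Many interferon-stimulated genes had a higher response at day 2 than at day 1, led by Oas3 with a response of 2.13-fold at day 1 and 5.74-fold at day 2. Of 24 measured members of the type I interferon list, 12 had a higher response and 0 a lower one (unadjusted p under 0.05 in 21, against 19.8% of all genes), with a median difference of 0.70 against 0.01 over all genes. At day 1 19 of the 24 were already higher in bleomycin mice, and at day 2 all 24 were. Within bleomycin mice 23 were higher at day 2 than at day 1, while within saline mice 3 were higher and 1 was lower. The members without a call included Rsad2 (0.71, adjusted p = 0.364), Ifit1 (0.40, adjusted p = 0.444) and Mx1 (0.94, adjusted p = 0.168), whose responses at day 1 were 1.81, 1.40 and 1.40.

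Oas3, an oligoadenylate synthetase that is activated by viral RNA, led the list. Its promoter, the 300 bases from 250 before to 50 after the start of the gene (GRCm38.p6, minus strand, chr5:120777610-120777909, sequence from RefSeq), is shown because it holds the core of the element that interferon-activated STAT and IRF factors bind, GAAANNGAAA, here in capitals.

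Oas3: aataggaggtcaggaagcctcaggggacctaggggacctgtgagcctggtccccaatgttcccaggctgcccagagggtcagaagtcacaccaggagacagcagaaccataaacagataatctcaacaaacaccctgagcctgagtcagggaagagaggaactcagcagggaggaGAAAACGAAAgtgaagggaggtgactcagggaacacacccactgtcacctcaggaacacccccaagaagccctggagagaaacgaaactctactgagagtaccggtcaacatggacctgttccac

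Searched on both strands, these letters stood in the promoters of 7 of the 15 list members with a given promoter (46.7%) and in 3.99% of all 27025 genes with one. The 7 were Bst2, Ddx58, Ifih1, Ifit1, Oas3, Rsad2 and Stat2, of which Bst2, Ddx58, Ifih1 and Oas3 were among the changed genes. A match of letters describes the window and no binding was measured.

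Oas3 ranged from 7.08 to 7.82 (median 7.56) in saline and from 7.31 to 9.73 (median 8.39) in bleomycin mice of day 1. At day 2 it ranged from 7.19 to 7.93 (median 7.76) in saline and from 8.82 to 11.12 (median 10.53) in bleomycin mice. The groups overlapped at day 1 and not at day 2, and the response went from 1.09 to 2.52, a difference of 1.43 ± 0.43 (SE, limma adjusted p = 0.0369). Every day 2 bleomycin mouse lay above every day 2 saline mouse in 5 of the 24 list members and in 221 of all 15707 genes. Irf7, the transcription factor that amplifies type I interferon production, went from 0.82 to 2.13, a difference of 1.31 ± 0.34 (SE, limma adjusted p = 0.0147). Mx2, a dynamin-like antiviral GTPase, went from 0.71 to 1.96 and Oas2 from 0.59 to 1.79, with differences of 1.24 (adjusted p = 0.00962) and 1.20 (adjusted p = 0.0268). Saline mice differed by 0.22 for Oas3 and 0.01 for Irf7 between the days, and neither shift was called. Saline means of Mx2 were 7.05 at day 1 and 6.77 at day 2, and those of Oas2 8.45 and 8.43.

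The bleomycin mice of day 2 differed widely in these genes. Irf7 stood at 9.69 in mouse 5 and 9.38 in mouse 8, against 11.78 to 12.40 in the other 6 and 9.08 to 9.59 in saline mice of the same day. In all 24 list members both of these mice lay below each of the other 6, and the same count over all genes is not given here. The mean level of the list was 9.91 and 9.81 in these mice, 11.18 to 11.68 in the others and 9.41 to 9.80 in saline mice. In mouse 8 of bleomycin day 1 it was 9.40, below the saline mice of day 1 (9.47 to 9.67), while the other 7 bleomycin mice of that day stood between 9.98 and 10.95. Without all 3 mice 22 of the 24 members were called, and without mouse 5 or mouse 8 of bleomycin day 2 alone 21 and 20. Mice 5 and 8 stood apart in these same genes. A higher day 2 response without them was therefore fixed in advance, and these counts are a description only. Leaving out mouse 8 of bleomycin day 1, or mouse 1 or 7 of bleomycin day 2, reduced the called members from 12 to 6, and without mouse 4 or 6 of bleomycin day 2 there were 7. In a fit on the 32 arrays of days 1 and 2 alone 0 of the 24 members passed in limma (15 at an unadjusted p under 0.05, lowest adjusted p = 0.0708 for Ddx58), so that the 12 calls rest on a spread estimated over all days.

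**Figure D3:**
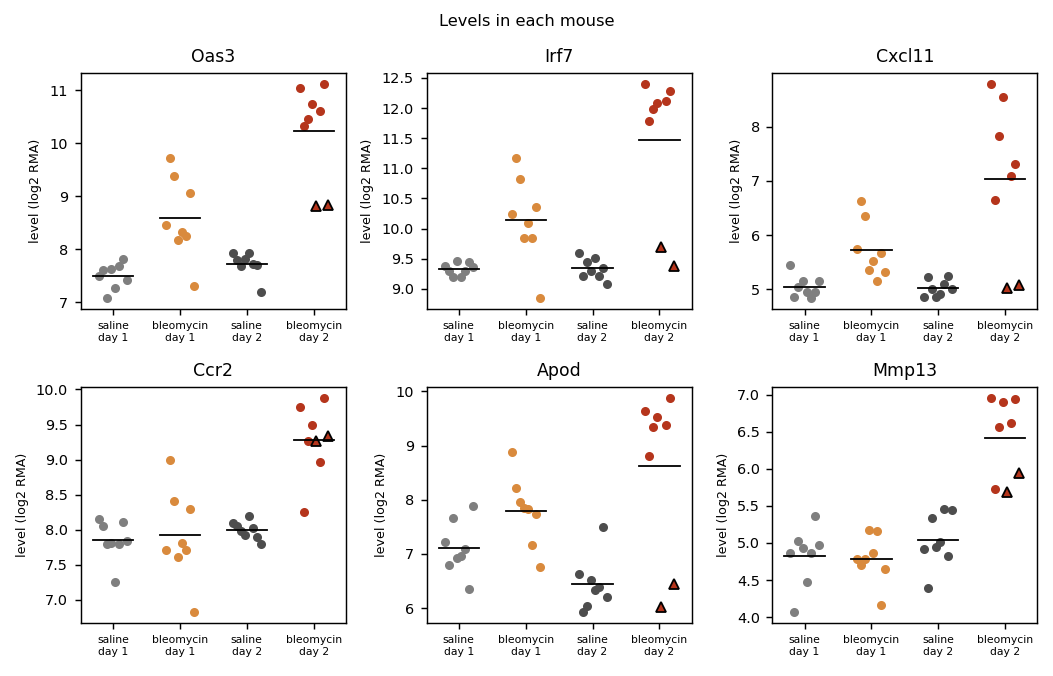
Levels (y axis, log2 RMA) of 6 genes are plotted for each of the 8 mice of the 4 groups (x axis), with a line at the group mean and triangles for mice 5 and 8 of bleomycin day 2. The triangles lie near or within the range of the saline mice for Irf7, Cxcl11 and Apod and above it, but below the other bleomycin mice of day 2, for Oas3, whereas for Ccr2 they lie among the other bleomycin mice of day 2.

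Cxcl11, a chemokine that interferons induce and that binds CXCR3 on T cells, was the 1 of 4 measured genes of that axis with a changed response. It ranged from 4.84 to 5.45 in saline and from 5.16 to 6.62 in bleomycin mice at day 1, and from 4.85 to 5.24 and 5.02 to 8.79 at day 2, with mice 5 and 8 at 5.02 and 5.07. The response was 0.67 at day 1 and 2.01 at day 2 (difference 1.34 ± 0.33, limma adjusted p = 0.01), and a further probeset of the gene gave 0.32 (adjusted p = 0.0643). The other ligands of the receptor had larger responses that were not called as changed, with Cxcl10 at 2.58 and 3.51 (adjusted p = 0.375) and Cxcl9 at 1.79 and 2.51 (adjusted p = 0.598). In the list of genes that interferon-gamma induces, 1 of 18 members changed (Gbp3, 0.55), with an unadjusted p under 0.05 in 7. Of these 18 differences 15 were above 0, and 13 members were higher at day 2 than at day 1 within bleomycin mice. Gbp3 lost its call in 14 of the 32 fits without 1 mouse. Of 9 interferon ligands and receptors 0 changed (unadjusted p under 0.05 in 1).

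A part of the monocyte markers had a higher response at day 2. Of 13 measured markers of monocytes and recruited macrophages, 4 had a higher response (Ccr2, Fcgr1, Ms4a4c and Plac8) and 0 a lower one, all 13 differences were above 0 and their median was 0.26. The count of 4 was 1 in the fit on the 32 arrays of days 1 and 2. At day 1 4 of the 13 were higher and 1 lower in bleomycin mice, and at day 2 11 were higher. Ccr2, the receptor by which classical monocytes leave the bone marrow, ranged from 7.26 to 8.16 (median 7.83) in saline and 6.83 to 9.0 (median 7.76) in bleomycin mice at day 1. At day 2 its range was 7.79 to 8.20 (median 8.00) in saline and 8.25 to 9.88 (median 9.30) in bleomycin mice, with no overlap. Its response went from 0.07 to 1.28, a difference of 1.21 ± 0.25 (SE, limma adjusted p = 0.0022), and it was called in all 15 alternatives and in each of the 32 fits without 1 mouse. Mice 5 and 8, low in interferon-stimulated genes, had 9.27 and 9.33 for Ccr2.

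Fcgr1, the high-affinity receptor for IgG and itself inducible by interferon, went from a response of 0.70 to 1.87 (difference 1.18, adjusted p = 0.0206) and Plac8 from 0.32 to 1.09 (difference 0.77, adjusted p = 0.00962). Of the defining macrophage genes without a change, Cd68 stood at 0.56 and 0.64 and Adgre1 at 0.20 and 0.42. In neutrophil markers 0 of 16 changed (unadjusted p under 0.05 in 1), and here both arms moved: 8 were higher at day 2 than at day 1 within bleomycin mice and 6 within saline mice. Their mean level ran from 7.79 to 8.43 in saline and 7.96 to 8.86 in bleomycin mice at day 1, and from 8.27 to 9.07 and 8.52 to 10.15 at day 2. Markers of alveolar macrophages, T cells, B cells, dendritic, NK and mast cells gave 0 changed members of 13, 15, 10, 11, 10 and 10, with 0, 0, 0, 0, 1 and 2 at an unadjusted p under 0.05.

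Among genes of mitosis, those called at day 1 were below saline and those called at day 2 were, but for 1, above it. Of 31 measured members 15 had a higher response at day 2 and 0 a lower one, and 28 had an unadjusted p under 0.05, with a median difference of 0.76. At day 1 10 were lower in bleomycin mice and 0 higher, and at day 2 10 were higher and 1, Smc4, lower. The count of 15 fell to 8 or 9 in 13 of the 32 fits without 1 mouse, which left out mice of all 4 groups. The saline mice did not take part in most of this, with 1 member higher and 1 lower between the days, whereas within bleomycin mice 27 were higher at day 2 and 1 lower. The promoters of Hmmr and Cdca8, members that changed, are shown with the cell cycle homology region TTTGAA and the CCAAT box of cell cycle genes in capitals, on either strand. They are the same 300-base windows (GRCm38.p6, both on the minus strand, from RefSeq), at chr11:40733388-40733687 for Hmmr and chr4:124936868-124937167 for Cdca8, and in Cdca8 a CCAAT box on the opposite strand overlaps the TTTGAA.

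Hmmr: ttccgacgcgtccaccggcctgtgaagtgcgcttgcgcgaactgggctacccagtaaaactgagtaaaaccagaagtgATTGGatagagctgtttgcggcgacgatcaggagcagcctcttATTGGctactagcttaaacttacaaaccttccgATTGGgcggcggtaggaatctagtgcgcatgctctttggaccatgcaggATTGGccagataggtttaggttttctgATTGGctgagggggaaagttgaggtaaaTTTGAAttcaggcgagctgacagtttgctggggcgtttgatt
Cdca8: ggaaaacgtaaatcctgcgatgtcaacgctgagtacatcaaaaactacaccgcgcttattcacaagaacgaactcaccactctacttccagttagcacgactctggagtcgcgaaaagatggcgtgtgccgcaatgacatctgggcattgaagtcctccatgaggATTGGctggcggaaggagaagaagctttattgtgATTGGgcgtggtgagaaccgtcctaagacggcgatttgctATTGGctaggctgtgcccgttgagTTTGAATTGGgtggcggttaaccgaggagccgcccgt

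TTTGAA stood on either strand in the promoters of 21 of 25 mitosis genes with a given promoter (84%) and in 20.2% of all 27025 genes. The 21 included all 12 changed members that had a promoter. CCAAT stood in 19 of the 25 (76%), among them 8 of the 12 changed members (66.7%), and in 41.1% of all genes. Of the 24 interferon-stimulated genes, 15 had a promoter in the table and 1 of these, Xaf1, held TTTGAA.

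Hmmr, the hyaluronan-mediated motility receptor of the mitotic spindle, ranged from 6.18 to 7.57 (median 6.89) in saline and 5.56 to 6.38 (median 6.05) in bleomycin mice at day 1. At day 2 it ranged from 6.35 to 7.33 (median 7.00) in saline and 6.93 to 8.37 (median 7.67) in bleomycin mice. The groups overlapped on each day, but every bleomycin mouse of day 2 lay above every bleomycin mouse of day 1. The response went from -0.84 to 0.76, a difference of 1.60 ± 0.40 (SE, limma adjusted p = 0.0121), and 2 dimmer probesets of Hmmr gave 0.06 and 0.30 without a call. Cep55, which acts at the midbody as daughter cells part, went from -0.68 to 0.70 (difference 1.37, adjusted p = 0.0219), and a dimmer probeset gave 0.45 (adjusted p = 0.289). Cenpf, a kinetochore protein, went from -0.79 to 0.40 (difference 1.18, adjusted p = 0.0466, lost in 20 of 32 fits without 1 mouse) and Cdca8, the borealin subunit of the chromosomal passenger complex, from -0.41 to 0.63 (difference 1.04, adjusted p = 0.00953). Cdk1, the kinase whose activity starts mitosis, had a difference of 1.01 and Foxm1, a transcription factor of this program, one of 0.63.

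DNA replication genes moved less and were called chiefly at day 2. Within bleomycin mice 15 members were higher and 0 lower at day 2 than at day 1, and within saline mice 3 were higher and 6 lower. Of 32 members 6 had a higher response and 0 a lower one (unadjusted p under 0.05 in 14, median difference 0.22), and 4 were higher and 1 lower at day 1 against 21 higher and 0 lower at day 2. Pole, the catalytic subunit of a leading-strand polymerase, had a difference of 0.82 (adjusted p = 0.0114), Mcm10 of 0.74 and Mcm5 and Gins1, parts of the replicative helicase, of 0.64 each. Dtl, a substrate receptor of the CUL4 ubiquitin ligase that clears licensing factors, went from -0.39 to 0.93 (difference 1.32, adjusted p = 0.00334). Its other probesets gave 0.05, 0.11, 0.12, 0.75 and 1.05, of which only the brightest, at 1.05, was called (limma adjusted p = 0.00866). In the list of DNA break repair 3 of 22 members had a higher response, namely Brca1 (0.76), Fancd2 (0.44) and Brca2 (0.40), which act in repair by homologous recombination and at stalled forks. Fancd2 lost its call in 21 and Brca1 in 11 of the 32 fits without 1 mouse. Group means of Pole at day 1 and day 2 were 7.53 and 7.12 in saline and 7.24 and 7.65 in bleomycin mice. For Brca2 they were 8.45 and 8.12 in saline and 8.20 and 8.26 in bleomycin mice.

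Many targets of p53 responded on both days. In mouse 8 of bleomycin day 1 the mean level over the list lay within the saline range. The same held for mice 5 and 8 of bleomycin day 2. Single members could differ from the mean, since Cdkn1a in every bleomycin mouse of day 1 lay above every saline mouse of that day. In this list 19 of 28 members were higher and 1 lower at day 1, and 18 were higher and 3 lower at day 2. Their median difference was -0.12, with 8 of the 28 differences above 0 and an unadjusted p under 0.05 in 10. Of the members 1 changed: Bbc3, the pro-apoptotic PUMA, whose response fell from 0.42 to 0.03 (difference -0.39 ± 0.08, limma adjusted p = 0.0016). Cdkn1a, the inhibitor p21 that halts the cycle, ranged from 8.60 to 9.09 (median 8.83) in saline and 9.38 to 11.88 (median 11.32) in bleomycin mice at day 1, and from 9.07 to 10.06 (median 9.60) and 8.97 to 11.91 (median 11.42) at day 2. Its response was 2.20 at day 1 and 1.41 at day 2, and the difference of -0.78 was not called (adjusted p = 0.168). Without the 3 mice this difference was -0.43, and 3 members of the list had a lower response in place of 1. These mice were picked by their levels in this list, so both values are a description only. Within bleomycin mice Cdkn1a differed by -0.06 between the days and within saline mice by 0.72.

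**Figure D4:**
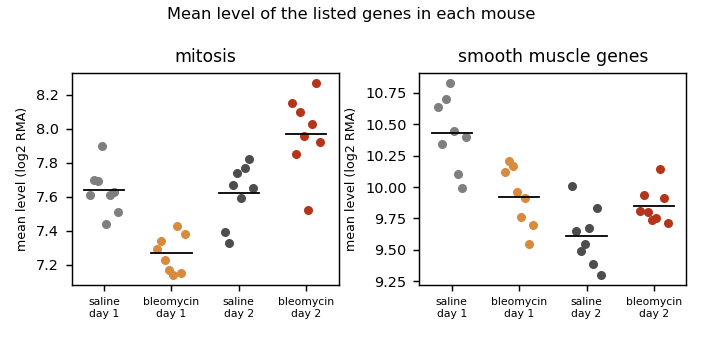
The mean level (y axis, log2 RMA) of 31 mitosis genes and of 12 smooth muscle genes is plotted for each of the 8 mice of the 4 groups (x axis), with a line at the group mean. The mean line is lowest in bleomycin mice of day 1 for mitosis genes and highest in saline mice of day 1 for smooth muscle genes, while single mice of these groups overlap with others.

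Smooth muscle genes reached a similar change by the other route. Of 12 measured members 8 had a higher response at day 2 and 0 a lower one, with a median difference of 0.67, after 9 lower at day 1 and 4 higher at day 2. Here 0 members were called between the days within bleomycin mice (median -0.06), whereas 11 were lower at day 2 than at day 1 within saline mice (median -0.87). Acta2, smooth muscle actin, ranged from 6.76 to 9.16 (median 8.18) in saline and 6.59 to 8.06 (median 7.06) in bleomycin mice at day 1, and from 6.10 to 7.64 (median 6.70) and 6.61 to 7.98 (median 7.12) at day 2. The groups overlapped on each day, and the response went from -0.93 to 0.43, a difference of 1.36 ± 0.41 (SE, limma adjusted p = 0.0385). Acta2 lost this call in 14 of the 32 fits without 1 mouse and had an adjusted p of 0.0874 on the 32 arrays of days 1 and 2. With the transferrin receptor difference as a covariate its value was 1.40 (adjusted p = 0.0343) and 8 members of the list were again called. Its 2 other probesets gave 0.64 (adjusted p = 0.0089) and 0.94 (adjusted p = 0.0268). Cnn1, calponin, had a difference of 1.20 (adjusted p = 0.0173), Actg2, enteric smooth muscle actin, of 1.19 (adjusted p = 0.0105) and Myh11, smooth muscle myosin, of 0.93 (adjusted p = 0.0128).

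Over the later days saline means of Acta2 lay between 7.43 and 7.75, against 8.19 at day 1 and 6.74 at day 2, so that the 2 saline groups stood on either side of them. Cardiac muscle genes, 12 of them, had 0 changed members (0 at an unadjusted p under 0.05) and all 12 differences above 0, with a median of 0.45. Their mean level ran from 10.28 to 12.02 in saline day 1, 9.87 to 11.75 in bleomycin day 1, 9.45 to 11.49 in saline day 2 and 9.96 to 11.52 in bleomycin day 2. How much heart or airway muscle each lung sample held was not tested.

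The largest difference of differences was that of Cps1, the mitochondrial enzyme that starts the urea cycle, and it too came with the saline mice of day 1. Cps1 ranged from 5.35 to 7.23 (median 6.16) in saline and 4.38 to 6.28 (median 5.49) in bleomycin mice at day 1, and from 4.03 to 4.66 (median 4.33) and 4.33 to 6.14 (median 5.60) at day 2. Saline mice of the 2 days did not overlap, and the response went from -0.86 to 1.07, a difference of 1.93 ± 0.30 (SE, limma adjusted p = 3.94e-05). Saline means were 6.27 at day 1, 4.32 at day 2 and 4.33 to 4.54 from day 7 to day 35. Over all arrays the mean levels of Cps1 (5), Cxcl11 (5.32) and Mmp13 (5.77) lay below the 30th percentile of genes (6.94), among the dim genes. Ttr, the thyroxine carrier transthyretin, stood at 6.74 in saline mice of day 1, 4.41 at day 2 and 4.31 to 4.52 later, and its response went from -1.33 to -0.10. In bleomycin mice Ttr stood at 5.41 ± 0.93 at day 1 and 4.31 ± 0.20 at day 2 (SD). It kept its call in 11 of 14 alternatives, with differences from 0.17 to 1.31, and lost it in 6 of the 32 fits without 1 mouse. For both genes the level in saline mice of day 1 stood apart from those of all 6 later saline groups. With the transferrin receptor difference as a covariate the differences were 2.06 for Cps1 and 1.25 for Ttr. Prss35, a secreted protease-like protein, went from -0.96 to 0.41 (difference 1.37, adjusted p = 0.000776) with a saline shift of -1.44. Slc8a2, a sodium-calcium exchanger, had a difference of 1.58 with 1 bleomycin mouse of day 2 at 9.93 over a median of 6.87, and its other probeset gave -0.16.

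**Figure D5:**
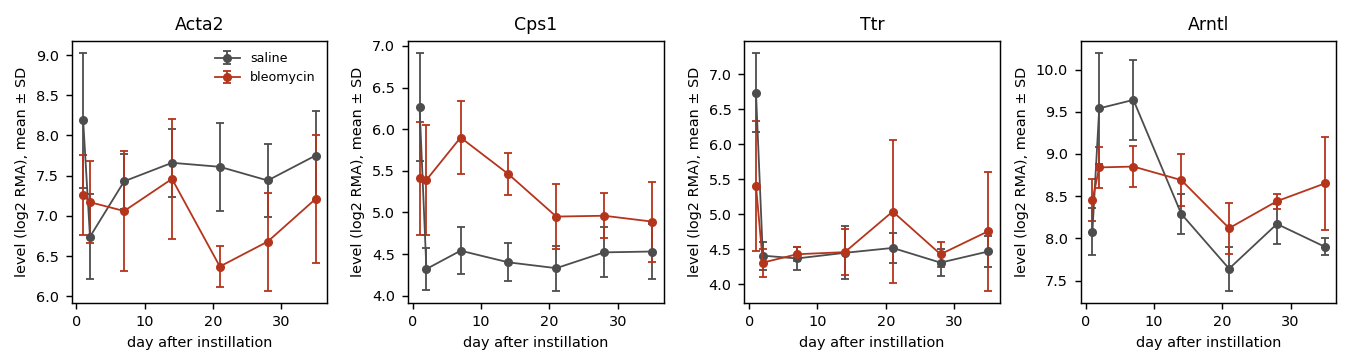
Group means ± SD (y axis, log2 RMA, n = 8 mice, 7 for saline day 14) of Acta2, Cps1, Ttr and Arntl are plotted over the 7 days of harvest (x axis, days) for saline and bleomycin mice. Saline means of Cps1 and Ttr are high at day 1 only (6.27 and 6.74), and those of Arntl are high at days 2 and 7 (9.54 and 9.64).

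Clock genes were called in both directions. Of 16 measured members 3 had a higher response (Dbp, Cry1 and Bhlhe40) and 3 a lower one (Arntl, Npas2 and Clock), and within saline mice 3 were higher and 10 lower at day 2 than at day 1, against 0 and 3 within bleomycin mice. On the 32 arrays of days 1 and 2 alone 1 was higher and 1 lower. Dbp lost its call in 17 and Bhlhe40 in 19 of the 32 fits without 1 mouse, and the higher members then numbered 1 in 11 of these fits. Arntl, which encodes BMAL1, the partner of CLOCK and NPAS2 in the activating arm of the clock, ranged from 7.66 to 8.57 (median 8.02) in saline and 8.10 to 8.80 (median 8.39) in bleomycin mice at day 1. At day 2 it ranged from 8.25 to 10.41 (median 9.72) in saline and 8.48 to 9.19 (median 8.80) in bleomycin mice, and the response went from 0.37 to -0.70 (difference -1.07 ± 0.24, limma adjusted p = 0.00473). Npas2 had a difference of -0.97 and Clock of -0.59. Dimmer probesets gave -0.34 for Arntl (limma adjusted p = 0.0518) and -0.04 for Npas2 (adjusted p = 0.836). Cry1, a repressor of the same factors, went the other way, from 0.37 to 0.99 (difference 0.62, adjusted p = 0.00332), and Dbp, one of their outputs, from -0.80 to -0.10 (difference 0.70, adjusted p = 0.0452). Saline means of Arntl moved between 7.64 and 9.64 over the 7 days. The hour at which lungs were taken was not given in the sources used here, and its part in these values cannot be told apart from the day.

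Zbtb16, a transcriptional repressor induced by glucocorticoids, had the lowest difference, -1.54 ± 0.47 (limma adjusted p = 0.042), from a response of 0.72 to one of -0.82, neither of which was called. It varied widely in each group, from 9.0 to 11.22 in saline and 10.16 to 11.39 in bleomycin mice at day 1 and from 9.20 to 11.85 and 8.68 to 12.06 at day 2, and lost its call in 17 of the 32 fits without 1 mouse. Ccnjl, a cyclin-like gene, went from 0.07 to -1.08 (difference -1.15, adjusted p = 0.0142), and its 2 other probesets gave -0.79 and -1.13. Several other genes with a lower response rested on 1 probeset of several. Sdha, a subunit of succinate dehydrogenase, had -0.76 on the probeset kept, of mean level 8.02, and 0.00 on both brighter ones. Ivns1abp had -0.84 against -0.10 and -0.01, Fhl1 -0.77 against -0.03, and for Gtpbp3 the probeset kept gave -0.92 and the brighter one 0.43 (adjusted p = 0.00611), the opposite direction. Over all 292 genes with a lower response 334 of 417 further probesets (80.1%) had the same direction and 53 of these were called, and over the 379 with a higher response 224 of 265 (84.5%) and 81.

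A few matrix and repair genes changed, where over all genes 2.41% had a higher and 1.86% a lower response. Mmp13, the interstitial collagenase of mouse, ranged from 4.07 to 5.36 in saline and 4.16 to 5.18 in bleomycin mice at day 1, and at day 2 from 4.39 to 5.46 and 5.69 to 6.96, with no overlap. Its response went from -0.04 to 1.38, a difference of 1.41 ± 0.35 (SE, limma adjusted p = 0.0107). Vcan, the proteoglycan versican of provisional matrix, went from 0.69 to 2.01 (difference 1.31, adjusted p = 0.0067), and its 3 other probesets gave 1.06 to 1.21, all called. Apod, a lipocalin, went from 0.68 to 2.19 (difference 1.51, adjusted p = 0.0259), with mice 5 and 8 of bleomycin day 2 at 6.02 and 6.45 and the others between 8.81 and 9.88. In the list of wound healing and provisional matrix 2 of 27 members changed, Mmp13 and Tgfbi (0.51), while Timp1 stood at 1.74 and 2.44 and Fn1, fibronectin, at 0.68 and 0.77. Among 18 collagen chains Col6a2 was called as higher (0.36) and Col4a3, of the alveolar basement membrane, as lower (-0.66). The unadjusted p was under 0.05 in 9 of the 18 collagen chains and in 4 of the 27 wound healing members, against 19.8% of all genes. Of the 18 collagen differences 16 were above 0, with a median of 0.26. Col6a2 lost its call in 10 of the 32 fits without 1 mouse.

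For several early programs no or few changes were called. In acute-phase proteins 0 of 13 changed (unadjusted p under 0.05 in 1), with 8 higher on each day. Saa3, serum amyloid A of macrophages and epithelium, had a response of 3.53 at day 1 and 3.95 at day 2, with bleomycin mice spread from 9.24 to 14.09 and from 9.20 to 14.12 (difference 0.42, adjusted p = 0.803). Without the 3 mice described above, which were picked by their low levels, 1 member was called as higher and the difference of Saa3 was 1.06. Both values are a description only. In NF-kB targets 0 of 15 changed (unadjusted in 2), in neutrophil chemokines 0 of 8 (unadjusted in 1), where Cxcl3 had 1.70 and 2.91, and in the interleukin-6 family 0 of 11 (unadjusted in 1), where Il6 had 2.46 and 3.20 with a standard error of 0.85 on their difference of 0.74. Such a spread leaves a wide range of differences undetected. In alveolar type II, club and ciliated cell markers 0 of 14, 11 and 14 changed (unadjusted in 1, 0 and 0). Of alveolar type I markers 1 of 14 changed (Col4a3, unadjusted in 5), with 13 of the 14 differences below 0. Of endothelial markers 1 of 24 changed (Emcn, -0.45, unadjusted in 2).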

How the data were processed

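Gene expression in the lungs of 111 mice was measured on Affymetrix mouse arrays, 1 per mouse. According to the methods of the study, the authors amplified the RNA with a NuGEN Ovation kit, remapped the probes, left out those with a poor mapping and applied RMA. The values they deposited are on a log2 scale (2.75 to 14.69). The genome build was not given in the sources used here.

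Among 32688 probesets, 314 with more than 1 gene and 4503 with none named were dropped. Each of 15707 genes was then represented by its most variable probeset out of the 27871 left. A model with 1 mean for each of 14 groups was fitted over all arrays in R 4.3.3 with limma 3.58.1 (lmFit, eBayes), and p-values were adjusted over all genes by Benjamini and Hochberg. The precision rests on 8 mice per group, since arrays give no depth. Gene lists, 52 in all, were described by counts and medians only. Members and lists were chosen with earlier results of these data known.

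Named genes were the 12 highest and 12 lowest differences past the threshold, up to 4 changed members of a list in each direction, or the 2 with the largest difference where none changed, up to 4 for each class of calls, and defining markers of a list. Cxcl9, Cxcl10, Saa3, Cdkn1a and other members named with values but no call were chosen after their values were seen. Promoters came from RefSeq (GRCm38.p6), with 540 of the 671 changed genes matched by symbol. The fit was tested on simulated data. Alternatives covered the arrays in the fit, the probeset of a gene, dim genes (30% left out), 2 normalizations, 2 other variance models, array weights, a replicate block and each mouse left out in turn. Fits without 1 array per group, without 2 or 3 bleomycin mice and with either of 2 RNA quality covariates were added after seeing the data.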

Additional observations from a re-analysis of the deposited data

Results flagged for a closer look

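The difference between the responses of the 2 days was tested itself, and 379 genes were higher and 292 lower at day 2, as described above.

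Of the 96 sets of 8 mice behind the 24 genes with the highest and lowest differences, 12 held 1 mouse far from the other 7, where chance gives about 1 in 20. Saline mice supplied 7 of these. Pus3 stood at 5.82 in saline day 1 mouse 5 (others 7.19 to 7.79) and at 7.13 in bleomycin day 1 mouse 3 (7.74 to 8.01). Gtpbp3 stood at 6.65 in saline day 1 mouse 1 (7.08 to 7.45) and at 7.46 in bleomycin day 1 mouse 3 (7.90 to 8.26). Npas2, a clock gene, stood at 9.35 in bleomycin day 1 mouse 7 (8.59 to 8.92) and at 7.78 in bleomycin day 2 mouse 5 (8.59 to 9.29). Mouse 5 of bleomycin day 2 was also 1 of the 2 with interferon-stimulated genes near saline. Apod was 7.50 in saline day 2 mouse 7 (5.93 to 6.63), Oas3 was 7.19 in saline day 2 mouse 8 (7.69 to 7.93), and Vcan was 7.99 in saline day 1 mouse 4 (7.01 to 7.47). Ivns1abp was 9.37 in bleomycin day 2 mouse 7 (9.79 to 9.99), Ubfd1 was 9.49 in saline day 2 mouse 4 (8.83 to 9.14), and Fhl1 was 4.81 in saline day 1 mouse 1 (5.44 to 5.81).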

How the results depend on the processing

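Against 379 genes higher, 292 lower and 40 higher by over 2-fold, the 32 arrays of days 1 and 2 alone gave 181, 67 and 22, and array weights gave 692, 578 and 67. All single-gene probesets tested one by one gave 624 higher and 612 lower. With the mean of a gene's probesets 23 genes were higher and 1 lower by over 2-fold, against 40 and 3. Fits without 1 mouse gave 218 to 563 genes higher, 147 to 460 lower, 23 to 66 higher by over 2-fold and 2 to 5 lower by over 2-fold. The fewest higher were found without mouse 8 of bleomycin day 1 and the fewest lower without mouse 5 of bleomycin day 1, and the most of both without mouse 2 of bleomycin day 1. Of the alternatives added after seeing the data, leaving out the least correlated array of each group gave 61 higher by over 2-fold, leaving out mice 5 and 8 of bleomycin day 2 gave 793 higher, 598 lower and 114 higher by over 2-fold, leaving out mouse 8 of bleomycin day 1 as well gave 83 higher by over 2-fold, and the transferrin receptor covariate gave 532 lower and 65 higher by over 2-fold. The counts at day 1 and day 2 stayed within 1.5 times under their 4 alternatives.

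The replicate block gave 195 higher, 62 lower and 24 higher by over 2-fold. The numbers mark different mice and did not pair them, since 12 of 48 same-numbered pairs had correlated deviations over 0.1 (mean 0.016) and 5 of 32 arrays correlated best with their own number.

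Between the fit on 32 arrays and array weights, called interferon-stimulated genes ranged from 0 to 21. Called mitosis genes ranged from 11 to 23 over the alternatives and from 8 to 19 over fits without 1 mouse, called smooth muscle genes from 7 to 8 and 6 to 8, called monocyte markers from 1 to 4 and 3 to 4, and called DNA replication genes from 6 to 12 and 5 to 9. With the brightest probeset of a gene Gtpbp3 reversed to 0.43, Ddit3 to 0.16 and Plagl2 to 0.03. The causes were not tested. Of the 24 genes at both ends, 8 kept their call in all alternatives and fits without 1 mouse.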
